A study of Mus musculus with 7 samples.

Results

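The genes described here are 41 genes of homeostatic astrocytes, the resting form of the star-shaped glial cell, measured by RNA sequencing in mouse medial prefrontal cortex (mPFC). They were taken by name as genes of the perivascular endfoot and of cell junctions, of metabolism, of transport, and of signalling and transcription. Others were taken as genes of lipid carriage and secretion, and of calcium and metal binding. Earlier results of these data were known when the list was chosen. The deposited count table holds 25467 genes, and all 41 were among the 17211 genes with enough counts to test. The samples are 4 libraries from mice treated with rhTSP1, the recombinant human form of the protein thrombospondin-1 and written TSP1 from here on, and 3 libraries from mice labelled PBS, phosphate-buffered saline, 7 different mice in all. The labels used here give no strain, sex, age, dose, route or duration, and they name no genetic change in either group. The RNA came from brain tissue, and no sorting of astrocytes is named. In such bulk tissue, fewer astrocytes and less RNA per astrocyte cannot be told apart.

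Astrocytes cover blood vessels with endfeet, take up transmitters and potassium from around synapses, turn glutamate into glutamine, make lipoprotein particles and pass small molecules to each other through gap junctions. The genes that carry out these tasks in healthy tissue are called homeostatic, in contrast to the reactive genes that astrocytes switch on after injury or inflammation. Thrombospondin-1 is a secreted matrix glycoprotein that astrocytes themselves make and that is known for promoting the formation of excitatory synapses.

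As a group, the 41 genes lay lower with TSP1 than with PBS by a small amount, and no gene of them passed the test over all genes. The fitted log2 fold change, TSP1 over PBS, was below 0 for 36 genes and above 0 for 5, where 48.9% of all genes tested were below 0. Its median was -0.19 (a difference of -12.2%), against 0.00 over all genes tested. In edgeR's quasi-likelihood test, 0 of the 41 genes had an adjusted p under 0.05, as had 0 of 17211 genes (0.0%), and the smallest adjusted p of any gene was 0.0536. At an unadjusted p under 0.05, 19 members were lower with TSP1, where the share over all genes was 5.44%, and 1 was higher, where that share was 4.21%. Every TSP1 library was below every PBS library for 13 members (5.26% of all genes), and every TSP1 library was above every PBS library for 1 (4.83% of all genes). These 14 genes are among the 20 with an unadjusted p under 0.05 in either direction, a class that holds 9.65% of all genes.

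**Figure D1:**
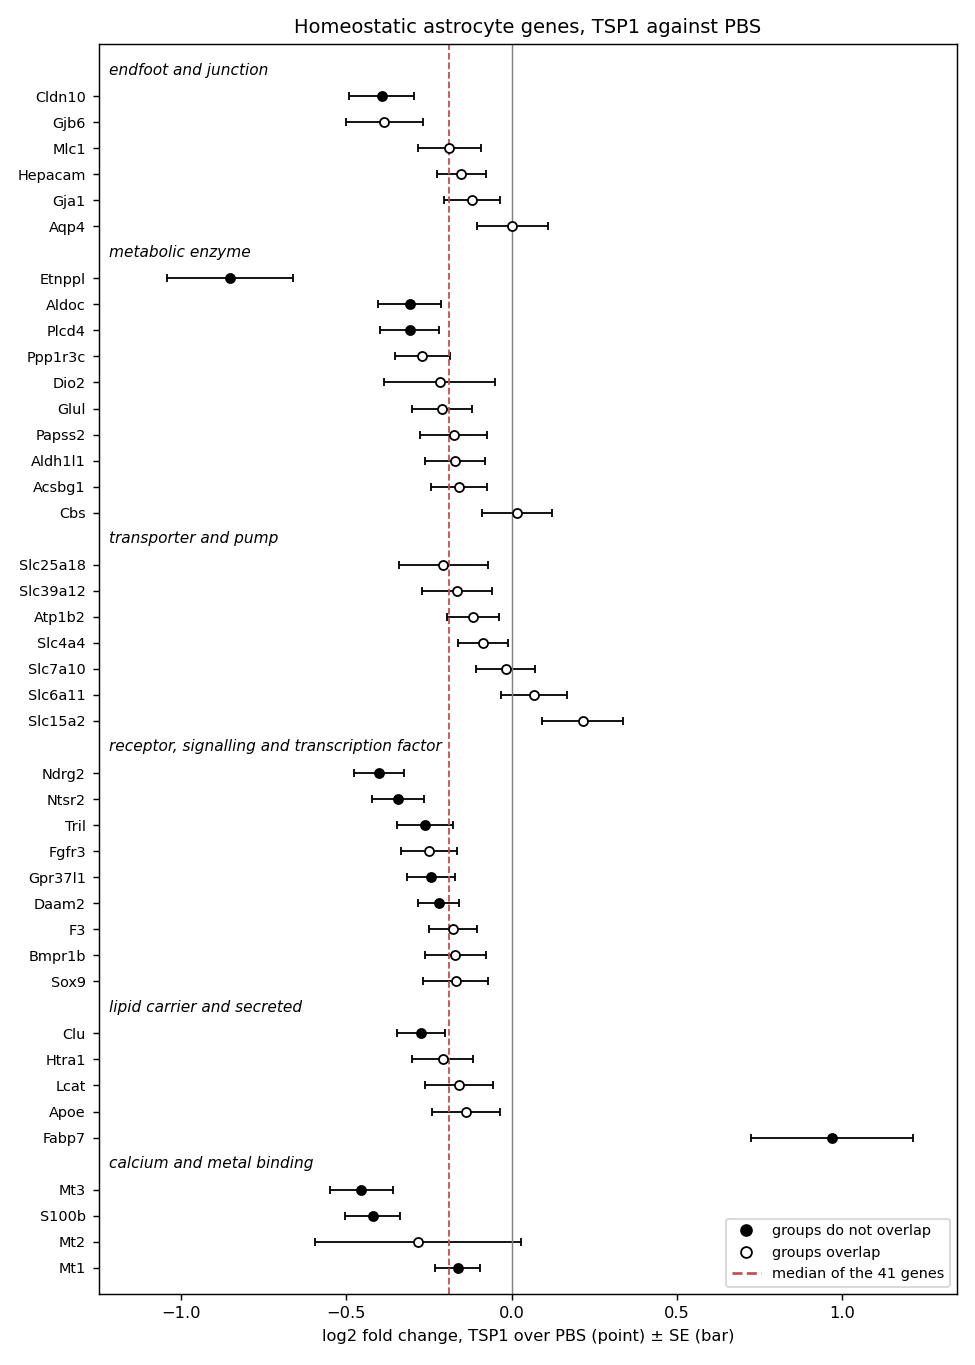
Each row is 1 of the 41 genes, grouped by role, and the horizontal axis is the log2 fold change, TSP1 over PBS, with its SE as a bar (4 and 3 libraries). Filled points are the 14 genes whose TSP1 and PBS libraries did not overlap. Most points lie left of 0 around the dashed median of -0.19, Etnppl stands furthest left at -0.85 and Fabp7 furthest right at 0.97.

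The outcome of the gene-by-gene test depended on the tool. DESeq2 called 7 of the 41 genes at an adjusted p under 0.05, among 87 genes in all (0.541%), and edgeR's exact test called 6 of the 41, among 85 in all (0.494%). Etnppl, Ntsr2, Ndrg2, Fabp7, S100b and Mt3 were called by both tools and Clu by DESeq2 alone. Limma-voom called 0 genes (0.0%). The quasi-likelihood test without the low-count filter called 19 genes (0.0746%), of which Ndrg2 was a member. Below, an adjusted p is that of edgeR's quasi-likelihood test over all 17211 genes unless another tool is named, and CPM are counts scaled to the size of the library, with TMM factors that adjust each library's total for its composition.

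The libraries held between 15090336 and 20755167 counts, with 23548 to 23895 genes detected. The given astrocyte markers were well measured in every library, with at least 56.0 CPM of Aldh1l1, 98.2 CPM of Aqp4 and 180.1 CPM of Gja1. The library TSP1 replicate 4 stood apart in markers of other cells. Its summed level of 10 striatal neuron genes was 619.5 CPM, against 248.8 to 263.6 CPM in the other 3 TSP1 libraries and 234.4 to 257.7 CPM in the PBS libraries. Without it, 15 members were lower and 1 higher at an unadjusted p under 0.05. The share of all genes at that p was not counted without this library. The members' median log2 fold change was then -0.16, and 0 genes passed the adjusted test.

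Among the 6 endfoot and junction genes, the log2 fold change was below 0 for 5, with a median of -0.17, and the water channel was level. Aqp4, which lets water through the endfoot membrane (chr18:15389496-15410982, minus strand, GRCm38), had 98.2, 123.6, 136.3 and 111.7 CPM in TSP1 libraries 1 to 4, against 107.1, 112.9 and 132.0 CPM in PBS libraries 1 to 3. The groups overlapped, with the lowest and the highest library both treated with TSP1. The means were 117.4 ± 16.3 CPM (SD, n = 4) with TSP1 and 117.4 ± 13.0 CPM (SD, n = 3) with PBS, and the log2 fold change was 0.00 (SE 0.11, adjusted p = 0.997).

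Gja1, the main gap junction connexin of astrocytes (chr10:56377330-56402513, plus strand), had 180.1, 213, 228 and 206 CPM with TSP1, against 231, 201 and 243 CPM with PBS. The groups overlapped, and TSP1 library 1 was below all others. Its log2 fold change was -0.12 (SE 0.08, adjusted p = 0.695). The second astrocyte connexin, Gjb6, differed by more, with a log2 fold change of -0.38 (SE 0.12, unadjusted p = 0.00729, adjusted p = 0.331), although 1 TSP1 library overlapped with PBS.

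Cldn10, a claudin that forms paracellular ion channels in other tissues (chr14:118787908-118875489, plus strand), had 20.8, 20.4, 22.7 and 18.5 CPM with TSP1, against 30.5, 23.9 and 26.5 CPM with PBS. All 4 TSP1 libraries were below the lowest PBS library. The log2 fold change was -0.39 (SE 0.10, unadjusted p = 0.00134, adjusted p = 0.228), and it lay between -0.47 and -0.29 when each library was left out in turn. Mlc1 and Hepacam, membrane proteins of the endfoot that bind each other and whose human counterparts are mutated in a leukodystrophy, lay at -0.19 (SE 0.09) and -0.15 (SE 0.07) on the log2 scale, with overlapping groups.

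The 10 metabolic genes held the member with the lowest fold change. For 9 of them the log2 fold change was below 0, with a median of -0.21. An unadjusted p under 0.05 was found for 5, all lower with TSP1 (5.44% of all genes). Aldh1l1, a folate enzyme used across the field as an astrocyte marker (chr6:90486427-90600203, plus strand), had 59.96, 72.7, 72.5 and 56.0 CPM with TSP1, against 72.2, 77.0 and 71.3 CPM with PBS. TSP1 libraries 2 and 3 lay within the PBS range, and libraries 1 and 4 below it. The fitted log2 value, TSP1 over PBS, was -0.17 (SE 0.09, adjusted p = 0.586).

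Etnppl, the lyase that breaks down phosphoethanolamine, a building block of membrane lipids (chr3:130617448-130637521, plus strand), had 30.3, 44.6, 43.2 and 30.7 CPM with TSP1, against 81.5, 55.9 and 64.2 CPM with PBS. Every TSP1 library was below every PBS library, and TSP1 libraries 1 and 4 were the lowest. Its mean was 37.2 ± 7.75 CPM (SD, n = 4) with TSP1 and 67.2 ± 13.1 CPM (SD, n = 3) with PBS, a ratio of 0.554. The log2 fold change was -0.85 (SE 0.19), with an unadjusted p of 0.0028 and an adjusted p of 0.279. The adjusted p was 6.94e-05 in DESeq2, 0.00663 in edgeR's exact test and 0.16 in limma-voom. Leaving out each library in turn gave log2 fold changes between -0.96 and -0.69.

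Aldoc, the aldolase isoform of brain glycolysis (chr11:78322968-78327781, plus strand), had 756, 976, 948 and 769 CPM with TSP1, against 1090.3, 1011 and 1104 CPM with PBS. The groups did not overlap, and TSP1 libraries 1 and 4 again lay below 2 and 3. Its log2 fold change was -0.31 (SE 0.09, unadjusted p = 0.00557, adjusted p = 0.313).

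Plcd4, a phospholipase C (chr1:74542888-74567794, plus strand), had 16.2, 16.9, 17.4 and 15.9 CPM with TSP1, against 22.2, 18.5 and 20.9 CPM with PBS. These groups did not overlap either, and the log2 fold change was -0.31 (SE 0.09, unadjusted p = 0.00409, adjusted p = 0.301). Its value is uncertain, since 2101 of its exon bases overlap Zfp142 on the other strand, the use of strand in counting is not stated, and Zfp142 had 236% of its counts.

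Of the remaining metabolic genes, Ppp1r3c, which directs a phosphatase to glycogen, and Glul, the glutamine synthetase, had unadjusted p-values under 0.05 with overlapping groups. Their log2 fold changes were -0.27 (SE 0.08, adjusted p = 0.313) and -0.21 (SE 0.09, adjusted p = 0.479). Glul shares 12.5% of the 50-base stretches of its transcripts with the pseudogene Glns-ps1, so its counts depend on how shared reads were treated. Acsbg1, a fatty acid activating enzyme, had a log2 fold change of -0.16 (SE 0.09), and Papss2, which makes the sulfate donor, one of -0.17 (SE 0.10). Dio2, which activates thyroid hormone, had a log2 fold change of -0.22 with the wider SE of 0.17. Cbs, of the transsulfuration pathway, was at 0.02 (SE 0.11).

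The 7 transporter and pump genes were the group nearest to the rest of the genes. Of these, 5 had a log2 fold change below 0 and 2 above 0, with a median of -0.09. An unadjusted p under 0.05 in either direction was found for 0 (9.65% of all genes). Slc15a2, a peptide transporter (chr16:36750177-36784962, minus strand), had 31.4, 38.9, 35.2 and 35.6 CPM with TSP1, against 25.6, 28.0 and 37.8 CPM with PBS. The groups overlapped because PBS library 3 was higher than all but 1 TSP1 library. Its log2 fold change was 0.22 (SE 0.12, unadjusted p = 0.106, adjusted p = 0.622) and became 0.40 without PBS library 3 and 0.10 without PBS library 1.

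The GABA transporter Slc6a11 had a log2 fold change of 0.07 (SE 0.10), the serine and alanine exchanger Slc7a10 one of -0.02 (SE 0.09), and the bicarbonate cotransporter Slc4a4 one of -0.09 (SE 0.08). Atp1b2, a sodium pump subunit, was at -0.12 (SE 0.08), Slc39a12, a zinc importer, at -0.17 (SE 0.11), and Slc25a18, a mitochondrial glutamate carrier, at -0.21 (SE 0.14). Slc7a10 and Slc25a18 overlap Lrp3 and Atp6v1e1 on the other strand by 377 and 32 exon bases, and those neighbours had 271% and 399% of their counts.

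All 9 receptor, signalling and transcription genes had log2 fold changes below 0, between -0.40 and -0.17, with a median of -0.24. Of these, 7 had an unadjusted p under 0.05 (5.44% of all genes, lower with TSP1). In 5 the groups did not overlap (5.26% of all genes, lower with TSP1). Ndrg2, a cytoplasmic protein used as an astrocyte marker (chr14:51905271-51914158, minus strand), had the smallest unadjusted p of the 41 genes. It had 545, 644, 654 and 585 CPM with TSP1, against 843, 770.5 and 793 CPM with PBS. The highest TSP1 library lay well below the lowest PBS library. The means were 607 ± 51.3 CPM (SD, n = 4) with TSP1 and 802 ± 37.1 CPM (SD, n = 3) with PBS. The log2 fold change was -0.40 (SE 0.08, unadjusted p = 0.000112, adjusted p = 0.117), and the adjusted p was 0.000312 in DESeq2 and 0.00256 in the exact test. Leaving out each library gave values between -0.44 and -0.35, with unadjusted p-values of at most 0.000942.

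Ntsr2, a neurotensin receptor found mainly on astrocytes in the brain (chr12:16653382-16660227, plus strand), had 98.4, 119.7, 114.8 and 96.2 CPM with TSP1, against 132, 138 and 139 CPM with PBS. The PBS libraries lay close together, all above the TSP1 libraries. Its log2 fold change was -0.34 (SE 0.08, adjusted p = 0.171), with an adjusted p of 0.0321 in DESeq2 and 0.0375 in the exact test.

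Gpr37l1, an orphan receptor of glia (chr1:135160234-135167681, minus strand), had 169, 205, 199 and 182 CPM with TSP1, against 233, 215 and 223 CPM with PBS. Tril, an accessory protein of Toll-like receptors (chr6:53815468-53820830, minus strand), had 47.2, 54.8, 52.6 and 42.3 CPM with TSP1, against 60.9, 56.5 and 59.7 CPM with PBS. Daam2, a formin of the Wnt pathway (chr17:49456022-49564343, minus strand), had 127, 129.6, 118 and 134 CPM with TSP1, against 154, 144 and 148 CPM with PBS. In all 3 genes the groups did not overlap, and in Daam2 the lowest library was TSP1 library 3 and not 1 or 4. The log2 fold changes were -0.24 (SE 0.07, adjusted p = 0.31) for Gpr37l1, -0.26 (SE 0.08, adjusted p = 0.336) for Tril and -0.22 (SE 0.06, adjusted p = 0.288) for Daam2.

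Fgfr3, a fibroblast growth factor receptor, and F3, tissue factor, lay at log2 fold changes of -0.25 (SE 0.08, unadjusted p = 0.0109) and -0.18 (SE 0.07, unadjusted p = 0.0278), with overlapping groups. Sox9, a transcription factor that sets up the astrocyte fate, and Bmpr1b, a BMP receptor, were at -0.17 (SE 0.10) and -0.17 (SE 0.09). Their unadjusted p-values were 0.105 and 0.0872.

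The 5 lipid carrier and secreted genes held members at both ends. Clu, clusterin, a secreted chaperone that also rides on lipoprotein particles (chr14:65968483-65981547, plus strand), had 716, 834, 849 and 834 CPM with TSP1, against 989, 970.4 and 973 CPM with PBS. The groups did not overlap, and TSP1 library 1 lay well below the other TSP1 libraries. The means were 808 ± 61.9 CPM (SD, n = 4) with TSP1 and 977 ± 10.01 CPM (SD, n = 3) with PBS. The log2 fold change was -0.27 (SE 0.07, adjusted p = 0.256), or -0.22 without TSP1 library 1, and the adjusted p was 0.0308 in DESeq2 and 0.1 in the exact test.

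Fabp7, a carrier of fatty acids inside radial glia and astrocytes (chr10:57784881-57788450, plus strand), was the 1 member higher with TSP1 at an unadjusted p under 0.05. It had 19.99, 20.07, 32.1 and 17.6 CPM with TSP1, against 13.9, 8.93 and 11.4 CPM with PBS. All TSP1 libraries lay above all PBS libraries, and TSP1 library 3 lay well above the other TSP1 libraries. The means were 22.4 ± 6.54 CPM (SD, n = 4) with TSP1 and 11.4 ± 2.46 CPM (SD, n = 3) with PBS, a ratio of 1.96. On the log2 scale the fold change was 0.97 (SE 0.25, unadjusted p = 0.00486, adjusted p = 0.311), and the adjusted p was 0.000797 in DESeq2 and 0.0256 in the exact test. Leaving out each library gave values between 0.75, without TSP1 library 3, and 1.14, without PBS library 1.

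Apoe, the main apolipoprotein of the brain, had a log2 fold change of -0.14 (SE 0.10, unadjusted p = 0.207). Lcat, which esterifies cholesterol on lipoproteins, was at -0.16 (SE 0.10). Htra1, a secreted protease, was at -0.21 (SE 0.09, unadjusted p = 0.043), and the groups overlapped in all 3 genes.

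**Figure D2:**
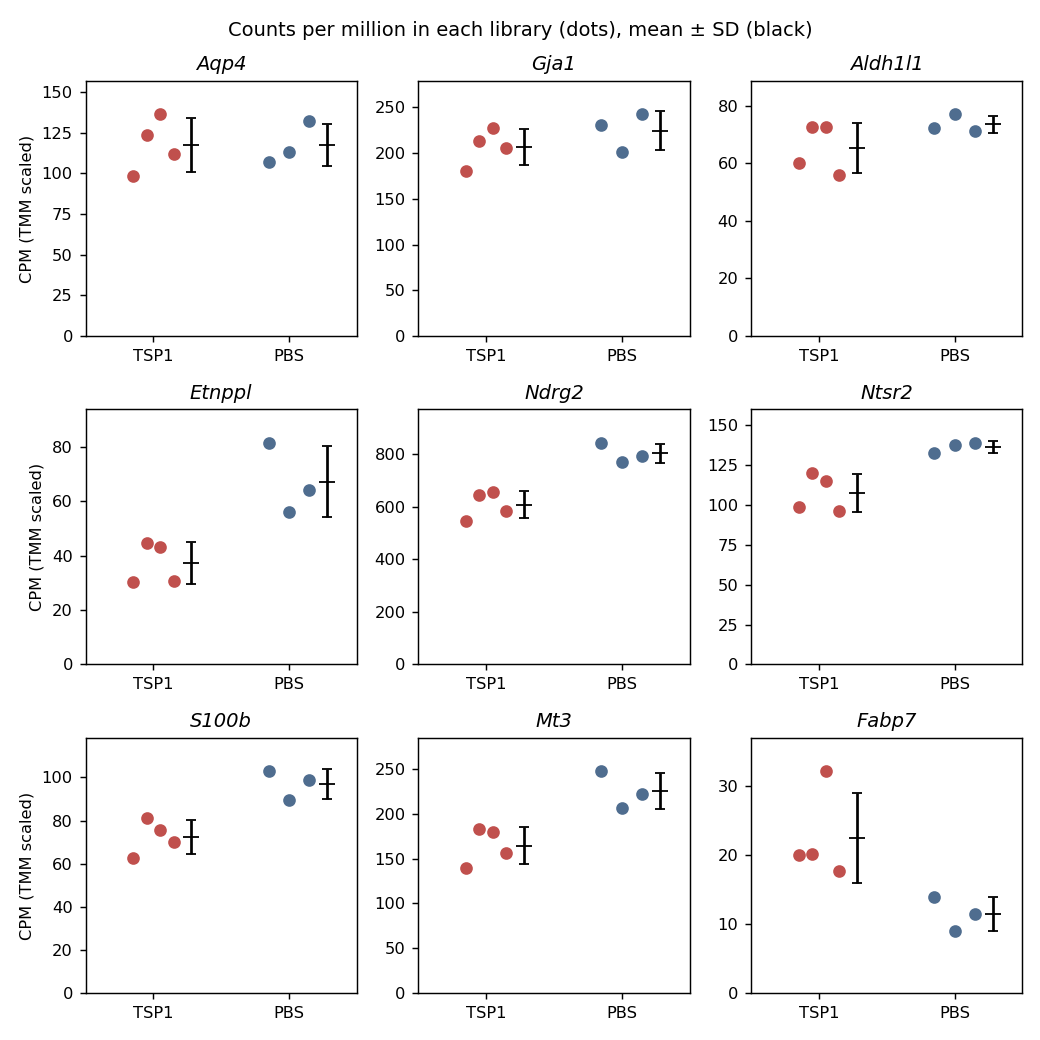
The vertical axis of each panel is the level in CPM with TMM scaling, starting at 0, with 1 dot per library (4 TSP1 libraries left, 3 PBS libraries right) and the mean ± SD in black. The upper row shows the 3 given astrocyte markers, whose groups overlap, and the other panels show the 6 genes called by both DESeq2 and the exact test. In those 6 the groups do not overlap, with TSP1 below PBS in 5 and above PBS in Fabp7.

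The sequences before the starts of Etnppl and Fabp7, the members with the lowest and the highest fold change, are shown as the parts of their promoters that both RefSeq (GRCm38.p6) and GENCODE M21 place before the gene. They cover chr3:130617198-130617447 for Etnppl and chr10:57784673-57784880 for Fabp7, both on the plus strand and 5′ to 3′. Capitals mark TTGGC, the core letters bound by NFI factors, and TGGGAA, the letters bound by RBPJ, both factors known in astrocyte development, searched on both strands.
Etnppl: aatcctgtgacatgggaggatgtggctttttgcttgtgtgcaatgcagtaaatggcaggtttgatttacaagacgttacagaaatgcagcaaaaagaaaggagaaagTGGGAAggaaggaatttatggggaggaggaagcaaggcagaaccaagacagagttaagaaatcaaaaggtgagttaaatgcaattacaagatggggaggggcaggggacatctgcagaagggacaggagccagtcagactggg
Fabp7: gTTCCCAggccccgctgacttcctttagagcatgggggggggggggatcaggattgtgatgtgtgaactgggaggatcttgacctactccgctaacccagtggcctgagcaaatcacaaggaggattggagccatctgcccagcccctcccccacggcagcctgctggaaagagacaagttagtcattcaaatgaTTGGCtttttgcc

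TGGGAA occurred 1 time in each sequence, and TTGGC 1 time in that of Fabp7 and 0 times in that of Etnppl. Of all 32851 RefSeq windows of the 250 bases before a start, 21.6% hold TGGGAA and 41.5% hold TTGGC. Of the 37 members with such a window, 11 hold TGGGAA and 20 hold TTGGC. A match describes letters in the window and is no evidence of binding. No such window was used for Aqp4, Atp1b2, Clu and Sox9.

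The 4 calcium and metal binding genes had the lowest median of the role groups, -0.35, with all 4 below 0. In 3 of them the groups did not overlap (5.26% of all genes, lower with TSP1). S100b, a calcium sensor that astrocytes also secrete (chr10:76253853-76261159, plus strand), had 62.5, 81.2, 75.8 and 70.2 CPM with TSP1, against 102.9, 89.3 and 98.8 CPM with PBS. Every TSP1 library was below every PBS library. The means were 72.4 ± 7.98 CPM (SD, n = 4) with TSP1 and 97.0 ± 6.98 CPM (SD, n = 3) with PBS. The log2 fold change was -0.42 (SE 0.08, unadjusted p = 0.000205, adjusted p = 0.123), and the adjusted p was 0.00693 in DESeq2 and 0.00687 in the exact test.

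The metallothioneins Mt1, Mt2 and Mt3, small proteins that bind zinc and copper, lie next to each other on chromosome 8. Mt3, the brain form (chr8:94152607-94154146, plus strand), had 139, 183, 179.6 and 156 CPM with TSP1, against 248, 207 and 222 CPM with PBS. All TSP1 libraries lay below all PBS libraries. Its means were 164 ± 20.7 CPM (SD, n = 4) with TSP1 and 226 ± 20.5 CPM (SD, n = 3) with PBS, and the log2 fold change was -0.46 (SE 0.09, unadjusted p = 0.000382, adjusted p = 0.155). The adjusted p was 0.00431 in DESeq2 and 0.00687 in the exact test.

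Mt1, a widely expressed form that metals and glucocorticoids induce (chr8:94179082-94180327, plus strand), had 167, 199, 193 and 179 CPM with TSP1, against 204, 211 and 205 CPM with PBS. The groups did not overlap, by a narrow margin. Its log2 fold change was -0.16 (SE 0.07, unadjusted p = 0.0314, adjusted p = 0.473). Mt2 (chr8:94172664-94173568, plus strand) was the member with the lowest level, at 1.04 to 1.72 CPM with TSP1 and 1.05 to 2.14 CPM with PBS, and its log2 fold change of -0.28 had an SE of 0.31. An antisense gene over Mt2, Gm45774, had 22.3% of its counts. The difference between the changes of Mt3 and Mt1 was not tested.

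The metal-response core, TGCACNC or TGCGCNC, is bound by the zinc-sensing factor MTF1. Below, for the 3 metallothionein genes, are the sequences that both RefSeq and GENCODE M21 place before the start. They cover chr8:94178839-94179081 for Mt1, chr8:94172368-94172617 for Mt2 and chr8:94152357-94152606 for Mt3 on the plus strand (RefSeq, GRCm38.p6), 5′ to 3′, with each match on either strand in capitals.
Mt1: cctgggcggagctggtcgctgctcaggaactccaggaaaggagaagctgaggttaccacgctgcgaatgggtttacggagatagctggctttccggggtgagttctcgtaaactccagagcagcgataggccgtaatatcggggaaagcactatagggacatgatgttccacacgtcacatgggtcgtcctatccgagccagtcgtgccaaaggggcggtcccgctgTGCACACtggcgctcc
Mt2: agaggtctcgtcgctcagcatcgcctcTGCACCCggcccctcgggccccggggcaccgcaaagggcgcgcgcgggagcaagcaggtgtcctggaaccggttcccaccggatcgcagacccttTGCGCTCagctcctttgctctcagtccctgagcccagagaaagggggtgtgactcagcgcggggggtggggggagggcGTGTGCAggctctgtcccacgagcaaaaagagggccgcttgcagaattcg
Mt3: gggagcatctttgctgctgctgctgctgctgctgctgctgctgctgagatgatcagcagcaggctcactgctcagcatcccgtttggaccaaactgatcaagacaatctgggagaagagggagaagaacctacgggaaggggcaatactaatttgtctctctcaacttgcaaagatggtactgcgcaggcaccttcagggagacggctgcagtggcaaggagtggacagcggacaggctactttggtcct

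The core letters occurred 1 time before Mt1, 3 times before Mt2 and 0 times before Mt3. They occur in 21.4% of all 32851 windows and in 11 of the 37 member windows, Etnppl among them. Where the core is absent, only these letters are absent from this window. For the counts of the metallothionein genes, bases after the end of each sequence were not searched. For Mt2 these include the bases up to the start given above, chr8:94172664. The annotated exons of Mt1 fill its whole span of 1246 bases. The counts thus depend on the start used and do not compare the promoters as wholes.

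Levels per kilobase of exon, which allow genes to be compared with each other, spanned a wide range. Apoe was the highest member at 715 CPM per kilobase with TSP1 and 786 with PBS, followed by Glul at 532 with TSP1 and 616 with PBS. Aldoc stood at 264 with TSP1 and 327 with PBS, and Clu at 235 with TSP1 and 284 with PBS. Mt2, at 2.30 with TSP1 and 2.85 with PBS, and Plcd4, at 2.36 with TSP1 and 2.91 with PBS, were the lowest. The coefficient of variation of CPM within a group had a median over the members of 11.3% with TSP1 and 7.77% with PBS. The members' median exon length was 3347 bases, against 4041 over all genes tested, and their median GC content 53.2%, against 49.9%. They lie on 17 chromosomes, with at most 4 on any 1 of them.

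The members varied together across libraries within the TSP1 group. For 35 of the 41 genes, TSP1 libraries 1 and 4 were both lower than TSP1 libraries 2 and 3. The mean log2 CPM of the 41 genes, relative to the mean of the 7 libraries, was -0.23, 0.05, 0.03 and -0.18 in TSP1 libraries 1 to 4, against 0.10, 0.06 and 0.16 in PBS libraries 1 to 3. The groups of this mean thus did not overlap, but TSP1 library 2 was just under PBS library 2. The lowest of the 7 libraries was TSP1 library 1 for 23 genes and TSP1 library 4 for 14. TSP1 library 1 also held the fewest counts, 15090336. Without TSP1 library 1, 15 members were lower and 1 higher at an unadjusted p under 0.05, and the median log2 fold change was -0.15. The share of all genes at that p was not counted without this library. In all, 39 members were lowest in a TSP1 library and 34 were highest in a PBS library. These orders were not counted over all genes tested, so they are not shown to be particular to the members. The members took 0.796% to 0.981% of all counts with TSP1 and 1.00% to 1.06% with PBS.

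**Figure D3:**
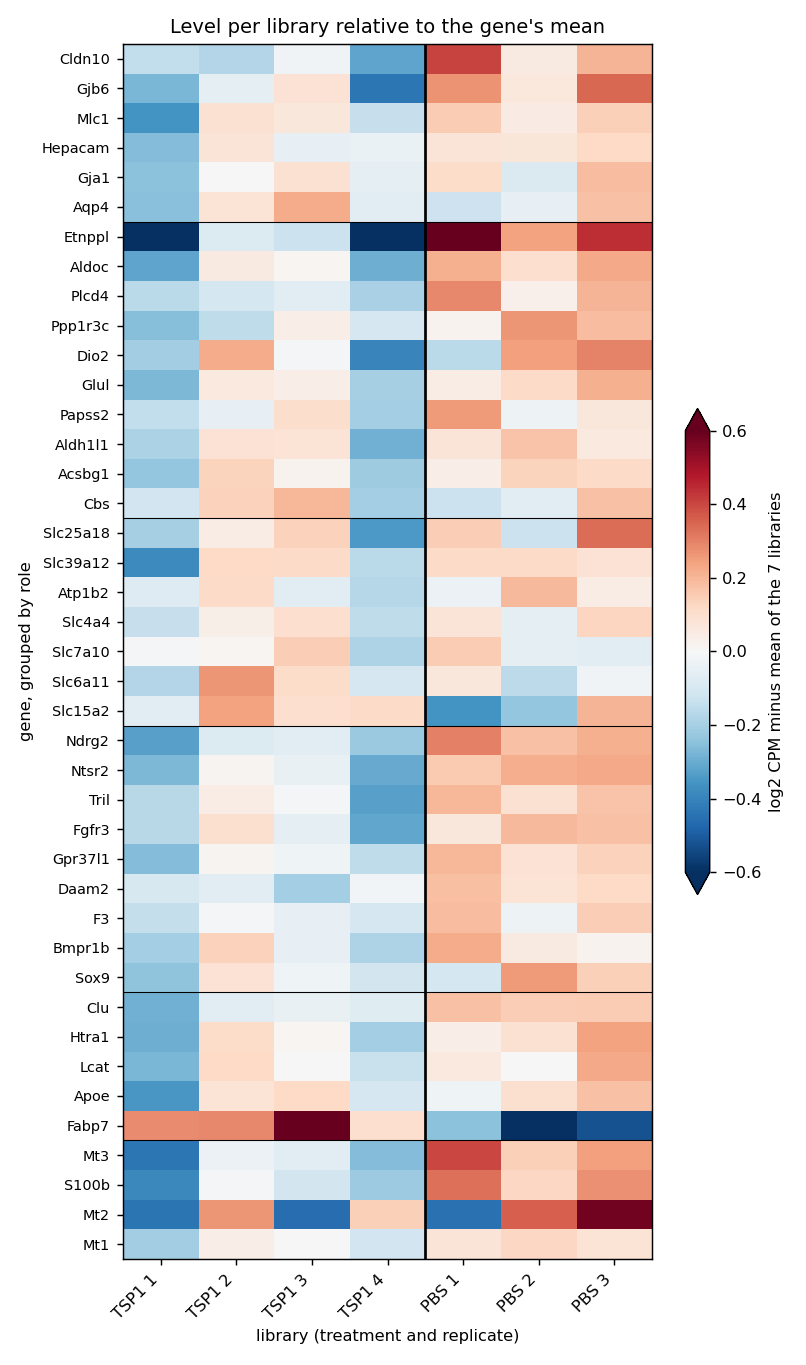
Each row is 1 of the 41 genes, grouped by role, and each column 1 library (4 TSP1 left, 3 PBS right). Colour is log2 CPM minus the gene's mean over the 7 libraries, blue below it and red above it. TSP1 libraries 1 and 4 are blue in most rows, the PBS libraries are mostly red, and Fabp7 runs the other way.

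Relative to this common level, members differed in both directions. Taking the members' mean in each library away from each gene, a description chosen after the values were seen, left 6 genes whose TSP1 libraries were all below their PBS libraries (0.784% of all genes by the same step): Aldoc, Etnppl, Ntsr2, Ndrg2, S100b and Mt3. It left 4 whose TSP1 libraries were all above (17.9% of all genes), which were Slc4a4, Slc6a11, Slc15a2 and Fabp7. The mean taken away was lower in every TSP1 library than in every PBS library. The step therefore moves the other genes up with TSP1, and it sets both shares over all genes. Neither count marks the members as unusual. On this relative scale the TSP1 minus PBS difference in log2 CPM was -0.67 for Etnppl, 1.14 for Fabp7 and 0.41 for Slc15a2.

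The 27 other astrocyte genes, listed apart from the 41, lay lower with TSP1 by a smaller median. Of these, 24 were below 0, with a median log2 fold change of -0.14. At an unadjusted p under 0.05, 9 were lower (5.44% of all genes) and 0 higher (4.21%). None of the 27 passed the adjusted test of edgeR's quasi-likelihood fit, DESeq2 or the exact test. In 3, all lower with TSP1, the groups did not overlap (5.26% of all genes). Among the genes of smallest p were Cst3, cystatin C, which microglia also express, at -0.38 (SE 0.12, adjusted p = 0.338), Sox2, a transcription factor of neural progenitors and astrocytes, at -0.23 (SE 0.08, adjusted p = 0.401), and Ezr, a membrane and actin linker of fine processes, at -0.22 (SE 0.09, adjusted p = 0.439). The glutamate transporters Slc1a2 and Slc1a3 were at -0.10 (SE 0.11) and -0.14 (SE 0.10), and the potassium channel Kcnj10 at -0.10 (SE 0.07). The difference between the 2 lists was not tested.

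Several lists of genes of other cells and states also lay lower with TSP1. The 12 microglia genes were all below 0, with a median log2 fold change of -0.34 and a summed level of 499 to 634 CPM with TSP1, against 651 to 764 CPM with PBS. Of 11 endothelial genes 10 were below 0, with a median of -0.20 and 280.3 to 343 CPM with TSP1, against 349 to 416 CPM with PBS. All 15 ribosomal protein genes were below 0, with a median of -0.19 and 2062 to 2569 CPM with TSP1, against 2516 to 2851 CPM with PBS. All 6 genes of oligodendrocyte precursors, which share several genes with astrocytes, were below 0, with a median of -0.17 and 322 to 370.4 CPM with TSP1, against 366 to 412 CPM with PBS. Of 5 fibroblast genes 4 were below 0, with a median of -0.21. Other lists went the other way or were level. All 10 striatal neuron genes were above 0, with a median of 0.56, as were the 3 tested choroid plexus genes, with a median of 0.19. Of 7 pericyte and smooth muscle genes 4 were above 0, with a median of 0.02.

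Reactive astrocyte genes, of which 15 of 18 were tested, were below 0 in 12, with a median of -0.19 and 225 to 322 CPM with TSP1, against 310.5 to 400.02 CPM with PBS. Their main marker, the intermediate filament gene Gfap, lay at -0.27 on the log2 scale (SE 0.21, adjusted p = 0.734). At an unadjusted p under 0.05, 4 reactive genes were lower with TSP1 (5.44% of all genes) and 0 higher (4.21%). In 3 of the 4 the groups did not overlap (5.26% of all genes, lower with TSP1). These 3, named after their values were seen, were Lcn2, the secreted iron-carrier protein lipocalin-2, Serpina3n, a protease inhibitor, and C4b, a complement component. Their log2 fold changes were -1.99 (SE 0.34) for Lcn2, -0.69 (SE 0.17) for Serpina3n and -0.60 (SE 0.14) for C4b. The level of Lcn2 was low, at 0.71 to 1.94 CPM with TSP1, against 3.36 to 7.51 CPM with PBS. The adjusted p-values of Lcn2 were 0.117 in edgeR's quasi-likelihood test, 3.11e-05 in DESeq2 and 0.000105 in the exact test. Those of Serpina3n were 0.246, 0.0335 and 0.0406 in the same order of tools, and those of C4b were 0.247, 0.0143 and 0.0256. The reactive genes not tested, Steap4, Cxcl10 and Ptx3, were near 0, with Cxcl10 at 0 in TSP1 library 1. Neuronal genes lay at a median of 0.05, with 6128 to 6306 CPM with TSP1 and 5607 to 6211 CPM with PBS. The 8 oligodendrocyte genes had a median of -0.08 and ranged from 2999 to 8191 CPM with TSP1, against 4476 to 5604 CPM with PBS. In these lists, the 41 genes' order of TSP1 libraries, with 1 and 4 below 2 and 3, also appeared in the microglia list and in the other astrocyte list, but not in the oligodendrocyte or ribosomal lists. The part of other cells, of RNA quality or of the dissected piece of tissue in the astrocyte values was not tested.

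**Figure D4:**
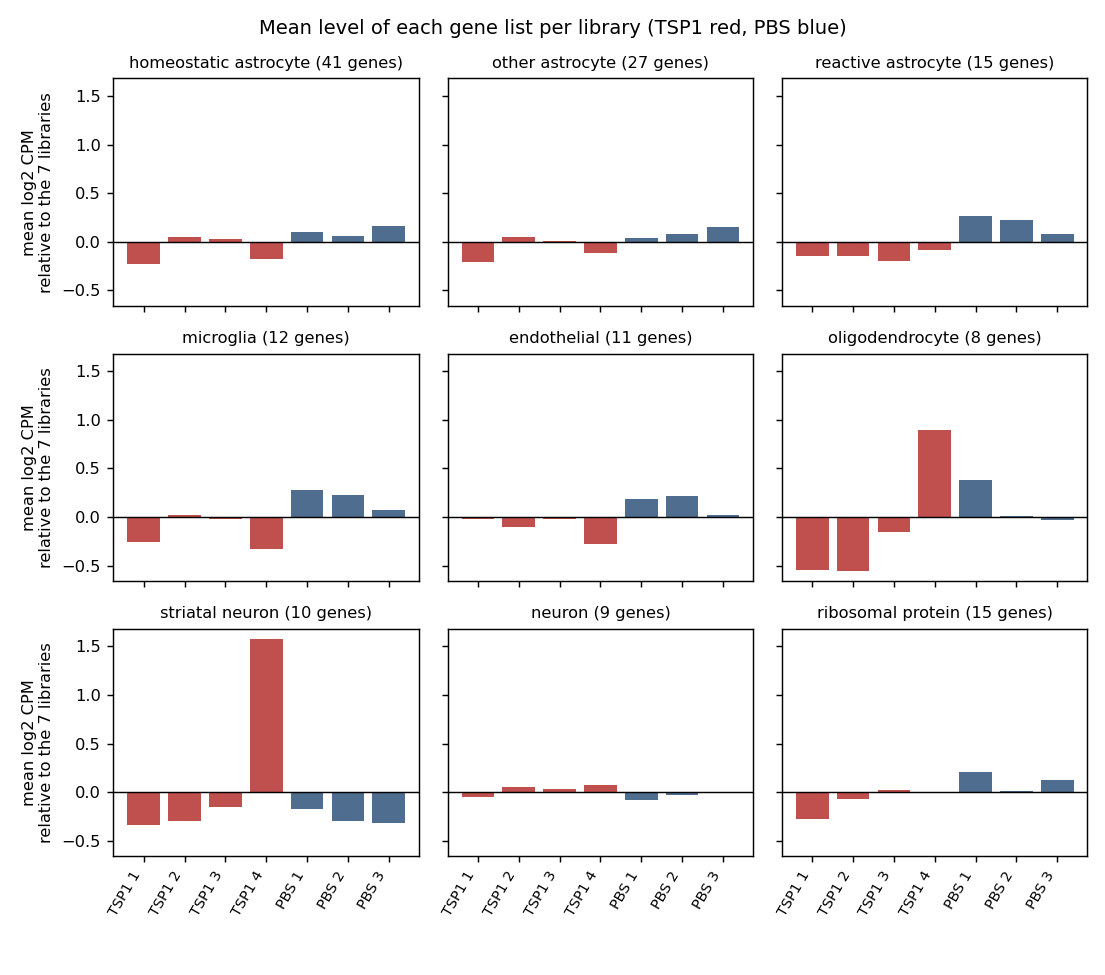
Each panel is 1 gene list and each bar 1 library (4 TSP1 libraries in red left, 3 PBS libraries in blue right). The vertical axis is the mean log2 CPM of the list's tested genes relative to the mean of the 7 libraries. The 41 homeostatic genes, the other astrocyte genes and the microglia genes are lowest in TSP1 libraries 1 and 4, while striatal neuron and oligodendrocyte genes are highest in TSP1 library 4.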

How the data were processed

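The authors deposited 1 table of raw counts per gene, judged as counts from its whole numbers and differing totals. RNA entered a SMARTer mRNA library kit, per the labels' protocols. Genome build GRCm38 is named in the submitters' processing notes. Neither labels nor file header name an aligner, a counter, an annotation or a strand setting (not given in the sources used here). Of 25467 gene identifiers, 25375 matched GENCODE M21, which gave symbols, positions counted from 1 and exon lengths. 0 rows lacked a gene name.

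The counts were tested with edgeR 4.0.16 (R 4.3.3): filterByExpr, TMM, robust quasi-likelihood fit of group over 7 libraries, two-sided, Benjamini-Hochberg threshold 0.05. Each SE is the absolute log2 fold change divided by the root of its F statistic. The depth of 15090336 to 20755167 counts left a median SE of 0.11 log2 units, which covers the spread between mice. The biological coefficient of variation was 9.8%. Log2 CPM per library used a prior count of 2. The scripts were tested on simulated counts. Alternatives were RLE factors, DESeq2 1.42.0, the exact test, limma 3.58.1 voom, no filter, 5 CPM in 3 libraries, a replicate block, length and GC offsets, and leaving out each library.

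The 41 genes and all lists were chosen with earlier results of these data known. Library values are given for Aldh1l1, Aqp4 and Gja1, for members whose groups did not overlap at an unadjusted p under 0.05, and for the member of smallest p in each role group. Gfap, Lcn2, Serpina3n, C4b, Gjb6 and members given by fold change alone were described after their values were seen. Motifs were searched in RefSeq promoter windows. Of the other astrocyte list, the genes of smallest p and Slc1a2, Slc1a3 and Kcnj10 are named, and 1 gene that this rule took is not reported here.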

Additional observations from a re-analysis of the deposited data

Results flagged for a closer look

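In 54 sets of 4 TSP1 libraries (41 genes and 13 summed lists), the gap of the extreme library to its nearest neighbour, divided by the whole range, was set against Dixon's critical value for 4 samples. Chance marks about 1 in 20 such sets. For Clu the ratio was 0.887, since TSP1 library 1 had 716 CPM and the other 3 had 834 to 849 CPM. For Fabp7 it was 0.8294, barely past the critical value, since TSP1 library 3 had 32.1 CPM and the others 17.6 to 20.1 CPM. For the summed striatal neuron genes it was 0.960, since TSP1 library 4 had 619.5 CPM and the others 248.8 to 263.6 CPM.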

How the results depend on the processing

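The count of all genes called was 0 in edgeR's quasi-likelihood test, 87 in DESeq2, 85 in the exact test, 19 without the low-count filter and 0 to 9 when a library was left out, with 9 without PBS library 3. The count of members called was 0, and 7, 6, 1 and 0 to 0 under those settings. At an unadjusted p under 0.05, 15 to 26 members were lower and 1 to 2 higher when a library was left out, 2 of them without PBS library 3, and the median log2 fold change lay between -0.24 and -0.15. Deviations from the group means had correlations of -0.26, -0.03 and 0.01 between TSP1 and PBS libraries of equal replicate number. Unequal numbers gave -0.12 to 0.22. Values this alike cannot decide whether equal numbers mark a pairing, and the labels do not say. A fit with the replicate block gave 16 members lower, 1 higher, a median of -0.17 and 0 calls. TSP1 library 4 has no PBS library of its number, so it did not bear on the group difference in that fit. The share of all genes at an unadjusted p under 0.05 was not counted with a library left out or with the block. The sign turned only for members near 0. Aqp4 was at -0.0020 in limma-voom, at -0.0285 with the length and GC trend removed and between -0.0771 and 0.0976 with a library left out. Slc7a10 was at 0.0414 with the replicate block, at 0.0526 with the length and GC trend removed and between -0.0730 and 0.0593 with a library left out. With a library left out, Cbs lay between -0.0501 and 0.116 and Slc6a11 between -0.0123 and 0.134. Mt2, at 5 CPM in 3 libraries, gave no value. The causes were not tested. With 4 and 3 mice, differences near the median SE of 0.11 cannot be told from the spread between mice. Larger ones can also miss an unadjusted p of 0.05. Mlc1, at a log2 fold change of -0.19, had an unadjusted p of 0.0696 in edgeR's quasi-likelihood test.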

Other observations

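Among the 17170 tested genes outside the 41, those whose log2 CPM followed the members' mean most closely over the 7 libraries were Dmrta2 (Pearson's r of 0.990), Cdkn2d (0.989), Cmtm7 (0.988), Hdac11 (0.987) and Fam19a5 (0.985). All of these values come from the same 7 libraries, so what differs between libraries in depth or composition enters each of them, and they are a description with no test.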
